A study of Macaca mulatta with 60 samples.

Results

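Among the 26149 transcripts measured in heart and muscle of fetal rhesus monkeys, 129 carried differences between fetuses that recurred in every tissue examined. They were chosen by a rule on the measured values. In each tissue the mean of a fetus's group was subtracted from its log2 level, the 12 deviations of a transcript were correlated between each of the 10 pairs of tissues, matched by fetus, and transcripts with a mean correlation above 0.7 were kept. The 129 members are 0.493% of the transcripts. The recurrence itself, and how strongly the members' deviations correlate, is therefore the ground of their choice and not a result.

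The study covered 60 arrays, 12 in each of 5 tissues: the ventricles, left (LV) and right (RV), the atria, left (LA) and right (RA), and the biceps femoris (BFM), a skeletal muscle of the thigh. Every tissue was taken from each of 12 female fetuses, which made up 4 groups of 3. Bisphenol A (BPA) goes into polycarbonate plastics and epoxy resins and has estrogenic activity. Dams of the BPA groups were fed 400 µg/kg body weight of BPA every day in fruit. They received it from gestation day 50 to day 100 (early gestation, EG) or from day 100 to term (late gestation, LG). Control dams received the ethanol vehicle in the same way, over the same days. The EG fetuses were taken by caesarian section and the LG fetuses after vaginal delivery, so age and mode of delivery cannot be told apart between EG and LG. Each tissue was normalized separately, and levels were therefore ranked and compared within a tissue only.

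Differences between animals that recur from tissue to tissue have several known sources. A variant inherited in regulatory DNA, in the number of copies of a gene or in the letters under an array probe is carried by every cell of an animal, and hormones and nutrients reach all organs through the blood. The series holds no genotypes, and none of these sources was tested. The members could be named in 2 cases only, because the array lists transcripts by their Ensembl identifiers and no table used here pairs those with genes. Those 2 are Pdk4 (ENSMMUT00000030108), a kinase that switches off pyruvate dehydrogenase and so spares glucose when fat is burned, and the transcript that the study describes as protein PMS2CL (ENSMMUT00000042488), a partial copy of the DNA mismatch repair gene PMS2. Lists of genes for antigen presentation, interferon response, red cells, glucocorticoid and clock response and copy number families could not be matched to transcripts for the same reason. The tissue labels could be set against a single defining marker. Myh6, the alpha myosin heavy chain of atrial muscle, lay at percentile 99.9 of all transcripts in LA and in RA, at 92.1 in RV, at 77.1 in LV and at 44.7 in BFM.

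Over all transcripts the mean correlation had a median of 0.07 and the middle 90% lay between -0.13 and 0.46. Among the members it ran from 0.70 to 0.99 with a median of 0.77, and it exceeded 0.8 in 41 and 0.9 in 11. The members just inside the threshold were ENSMMUT00000000821 (0.7017), ENSMMUT00000028054 (0.7008) and ENSMMUT00000028252 (0.7004), and the transcripts just outside it were ENSMMUT00000039576 (0.6987), ENSMMUT00000043773 (0.6981) and ENSMMUT00000045717 (0.6980). The threshold thus cut a continuous tail and did not separate a distinct class. All 10 pairs of tissues correlated positively in each of the 129 members, and all 10 exceeded 0.5 in 97. By pair, the members' median ran from 0.78 for RA with BFM to 0.86 for LA with RA, the pair that was also highest over all transcripts (0.27).

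A measure that the choice had not used came from leaving out each tissue in turn. Transcripts were chosen again from the other 4 tissues at a mean correlation above 0.7, and their deviations in the tissue left out were correlated with the mean deviation of those 4. With LA left out, 132 transcripts were chosen, and their median correlation in LA was 0.84. It was 0.80 in LV (159 chosen), 0.76 in RA (187), 0.68 in RV (214) and 0.63 in BFM (268). The share above 0.5 was 93.2% in LA, 84.9% in LV, 83.4% in RA, 72.4% in RV and 62.3% in BFM, where the same share over all transcripts was 26.7%, 22.4%, 19.8%, 21.4% and 16.5%. The 268 transcripts chosen in the heart chambers alone thus carried over to skeletal muscle less evenly than those tested in a heart chamber. Of them, 32 of 268 correlated negatively in BFM, against 16 of 214 in RV, 8 of 187 in RA, 3 of 159 in LV and 2 of 132 in LA. The sets differ in size and in the tissue pairs that chose them, so this is not a comparison of heart with muscle alone. Points in this comparison share the 12 fetuses, and the values are given without a test.

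**Figure D1:**
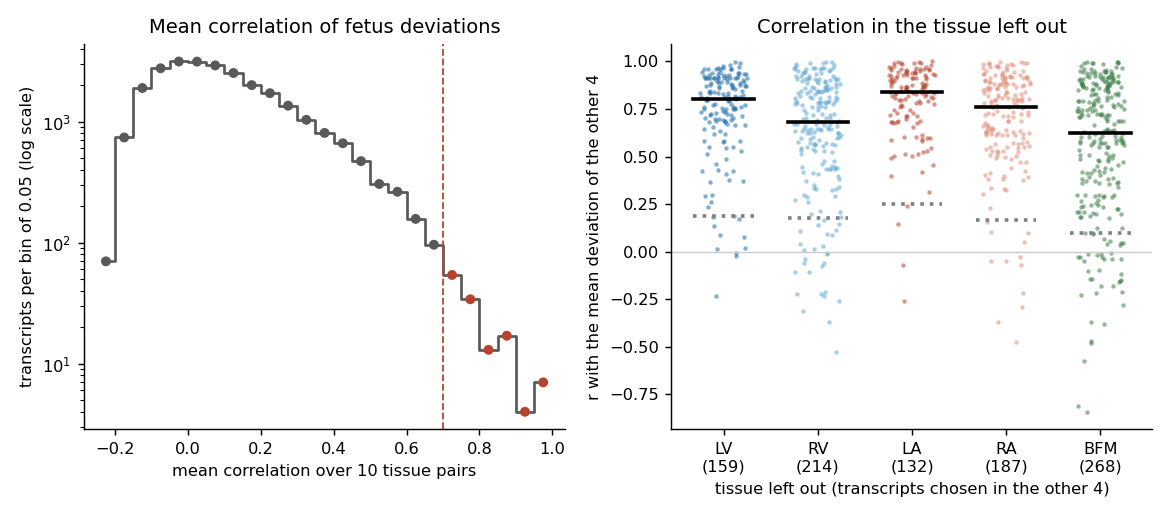
Left, the number of transcripts (log scale) in bins of 0.05 of the mean correlation of fetus deviations over 10 tissue pairs, with the threshold of 0.7 dashed and the bins of the members in red. Right, each point is a transcript chosen in the other 4 tissues, plotted at its correlation in the tissue left out, with the median as a solid bar and the median over all transcripts dotted. The solid bars lie between 0.63 in BFM and 0.84 in LA, and the dotted bars between 0.10 and 0.25.

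Most members gave signals above the median transcript in all tissues. The rule itself favours this, since array noise near background does not recur between tissues, and the shares below are a description. In whole tissue, fewer cells of a type and less RNA per cell cannot be told apart. Of the 129, 96 (74.4%) lay above the median transcript in each of the 5 tissues, against 41.3% of all transcripts, and 20 (15.5%) lay above percentile 90 in each, against 6.25%. None lay below percentile 25 in all 5 (0 members, against 14.1% of all transcripts), and none stood above percentile 75 in 1 tissue and below percentile 25 in another. The percentiles of a member spanned a median of 10.7 points over the 5 tissues, against 13.1 points for all transcripts, and at most 60.1 points. The span was under 25 points in 116 members (89.9%), close to the share of all transcripts (86.0%). On the LV arrays, which alone hold values below 0, 1 member lay at an array's lowest value.

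The spread between fetuses within groups was larger for the members in every tissue, which the rule itself favours. The within-group SD had a median on the log2 scale of 0.79 in LV and 0.65 in RV, against 0.58 and 0.41 for all transcripts. In the atria it was 0.61 (LA) and 0.58 (RA), against 0.31 and 0.34, and in BFM it was 0.50, against 0.26. The size of a member's differences varied across tissues, though less than for all transcripts. A member's largest SD in any tissue was a median of 1.94 times its smallest, against 3.07 times for all transcripts. It was under 2 times in 67 members and over 3 times in 15. LV gave the largest SD in 61 members and BFM the smallest in 62. Ventricular cDNA had not been amplified and atrial cDNA had, so chamber, amplification and slide cannot be told apart in these figures.

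**Figure D2:**
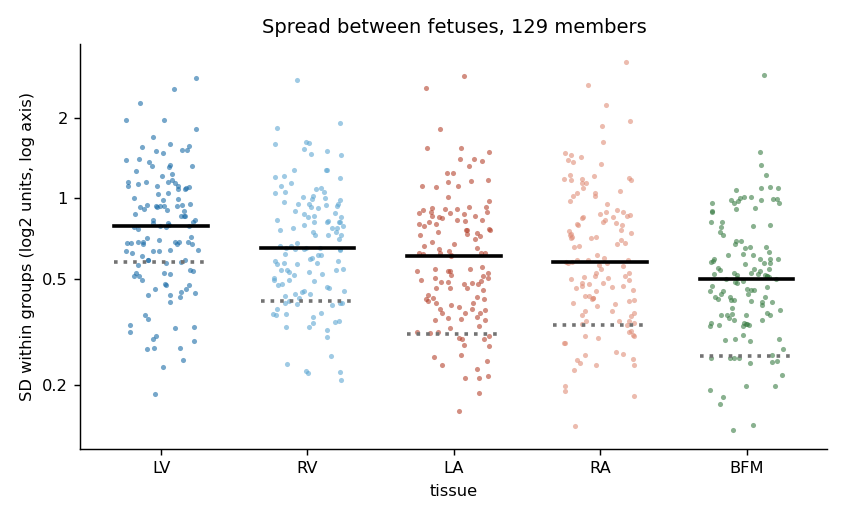
Each point is 1 of the 129 members, plotted at its pooled SD within the 4 groups (12 fetuses, log2 units on a log axis) in each tissue. Solid bars give the members' medians, from 0.50 in BFM to 0.79 in LV, and dotted bars the medians of all transcripts, from 0.26 to 0.58.

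The spread was not even over the groups. LG controls held the largest share of a member's within-group sum of squares, with a median of 40.8%, followed by LG BPA with 22.0%, EG controls with 16.7% and EG BPA with 5.80%. Over all transcripts the largest share fell to LG BPA (30.8%) and that of LG controls was 26.5%. LG controls were the widest group in 65 of the 129 members, and in 28.1% of all transcripts. These shares come from the deviations that chose the members. Members also share the 12 fetuses and are not separate counts, so the shares are a description. Each of the 12 fetuses was the most extreme in at least 1 member, and the most frequent was so in 39. Array quality, taken as an array's median correlation with the other arrays of its tissue, lay between 0.85 and 0.97 over the 60 arrays. Its deviations did not recur between tissues (mean correlation -0.01 over the 10 pairs). The members' deviations had a median correlation of 0.12 in size with it, averaged over tissues, against 0.18 for all transcripts. Within single tissues that median was 0.25 to 0.47 for members and 0.33 to 0.62 for all transcripts, and in BFM it was higher for members, 0.47 against 0.33. The part of array quality in the members' differences was not tested.

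The 12 fetus means of a member, each the mean over tissues of levels centred on the tissue mean, fell into 4 kinds of pattern. A pattern was taken as 2-level where the largest gap was at least 40% of the range, at least 2 fetuses lay on each side and the sides did not overlap in any of the 5 tissues. The same with a single fetus on a side was taken as 1 apart. A pattern was 3-level where 2 gaps of at least 25% of the range separated fetuses without overlap in at least 4 tissues, and otherwise graded. Of the members, 17 (13.2%) were 2-level, 15 (11.6%) had 1 fetus apart, 11 (8.53%) were 3-level and 86 (66.7%) were graded. Over all transcripts those shares were 0.382%, 0.440%, 0.161% and 99.0%. These counts depended on the definition. Members with 1 fetus apart numbered 9 to 25 when the gap was set at 0.5 or 0.3 of the range, and members with 3 levels numbered 3 when the window mean was subtracted first, which removes the difference between EG and LG. Since a gap shared by all tissues raises the correlation that chose the members, the excess is a description.

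The 2-level members had fetus means spanning a median of 2.13 on the log2 scale (1.05 to 7.90), with a largest gap of 0.88 to 5.67. In 10 of the 17 the lower level held 2 fetuses and the upper level 10, in 4 the lower held 10 and the upper 2, and in 3 the lower held 9 and the upper 3. The same split recurred among them. In 13 of the 17, the same 2 fetuses, 1 EG control and 1 LG control, stood apart, being the low ones in 10 and the high ones in 3. In the 3 members with 3 high fetuses, those 3 were also the same, and came from the LG groups. The 15 members with 1 fetus apart had a range of 0.83 to 4.36, and that fetus was high in 12 and low in 3. The 11 members with 3 levels had a range of 0.88 to 5.84, and the graded members one of 0.71 to 4.75.

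**Figure D3:**
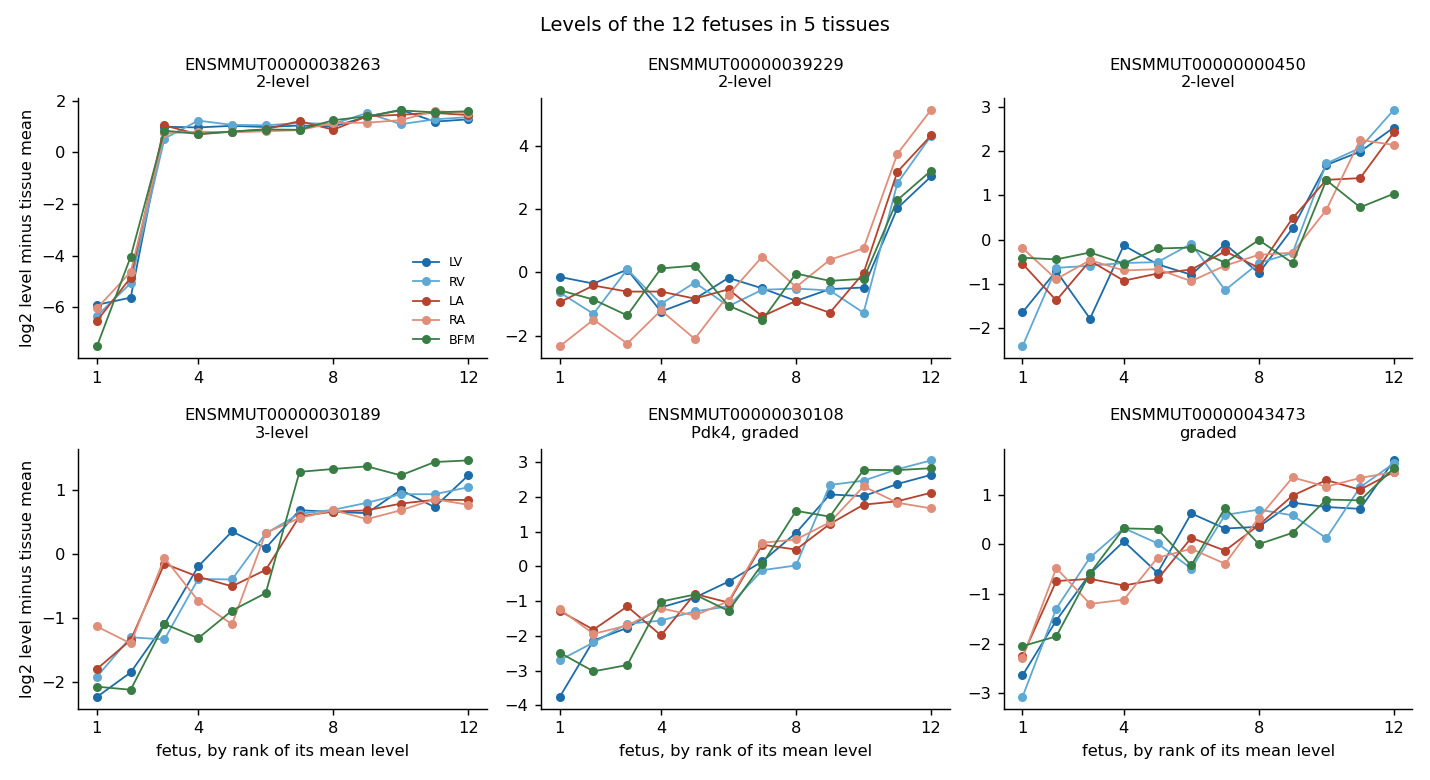
Log2 level minus the mean of its tissue for 12 fetuses in 5 tissues (colours), with fetuses placed by the rank of their mean level, so that a rank stands for a different fetus in each panel. ENSMMUT00000038263, ENSMMUT00000039229 and ENSMMUT00000000450 hold 2 levels, with 2 low, 2 high and 3 high fetuses, and ENSMMUT00000030189 holds 3 levels. Pdk4 and ENSMMUT00000043473 are graded by the definition used, with largest gaps of 26.6% and 31.9% of the range. In Pdk4 the 6 low fetuses, all EG, still lie below the 6 high ones, all LG, in every tissue.

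The highest correlations belonged to transcripts with neighbouring identifiers. The 8 members with the highest mean correlation all lay within identifier numbers 38255 to 38287, a range in which the array holds 16 transcripts, of which 12 were members. The range was drawn after the values were seen. It was extended from the member with the highest mean correlation through members with numbers within 10 of each other. A high share of members in it is therefore built in. The signal of the 12 members lay at percentile 90.6 or above in every tissue, which is a rank of probe signal and not of abundance. Per the study's methods the scanner gain was set so that a small share of the probes saturated, so differences between fetuses at such signals may be understated, and their sizes cannot be ranked between transcripts. At the top was ENSMMUT00000038263, with a mean correlation of 0.993 and no pair below 0.98. Its log2 level was 6.56 and 6.84 in the 2 low fetuses in LV and 13.4 to 14.1 in the other 10. In RV the low fetuses lay at 5.04 and 6.30 and the others at 11.9 to 12.9, and in LA at 4.31 and 5.98 against 11.5 to 12.4. In RA they lay at 5.05 and 6.46 against 11.8 to 12.7, and in BFM at 5.19 and 8.66 against 13.4 to 14.3. The levels thus stood more than 6 log2 units apart in the mean in each tissue (6.40 in RA to 6.93 in BFM), with nothing between them.

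The next highest members by mean correlation were ENSMMUT00000038267 (0.988), ENSMMUT00000038255 (0.979), ENSMMUT00000038280 (0.978) and ENSMMUT00000038271 (0.976). Their 2 low fetuses were the same as those of ENSMMUT00000038263. The mean of the other 10 fetuses exceeded that of the low pair by 1.47 to 1.88 for ENSMMUT00000038267, by 1.26 to 2.83 for ENSMMUT00000038255, by 2.64 to 4.45 for ENSMMUT00000038280 and by 1.19 to 2.28 for ENSMMUT00000038271, over the 5 tissues. Both fetuses lay below all 10 others in all 5 tissues in 10 of the 12 members of the range, and in 4 tissues in the remaining members, ENSMMUT00000038265 and ENSMMUT00000038268. Over the 12 members and 5 tissues the measured difference ran from 1.06 to 6.93.

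The 4 transcripts of the same range that were not members showed no such split in their signal. For 3 of them, ENSMMUT00000038257, ENSMMUT00000038274 and ENSMMUT00000038286, the signal in the lowest tissue lay at percentile 99.5, 99.9 and 99.9, where probes may be saturated, and a small measured difference there cannot be read as no difference. ENSMMUT00000038257 and ENSMMUT00000038274 had mean correlations of 0.657 and 0.667, and the low pair differed from the other fetuses by at most 0.31 and 0.74 in any tissue. ENSMMUT00000038286 (-0.138), at percentile 99.9 in its lowest tissue, differed by -0.11 to 0.07. ENSMMUT00000038278 (-0.136), which the study describes as a mitochondrial transfer RNA, lay at percentile 41.3 in its lowest tissue, and its differences had no common sign. What the other 15 transcripts encode was not settled here.

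**Figure D4:**
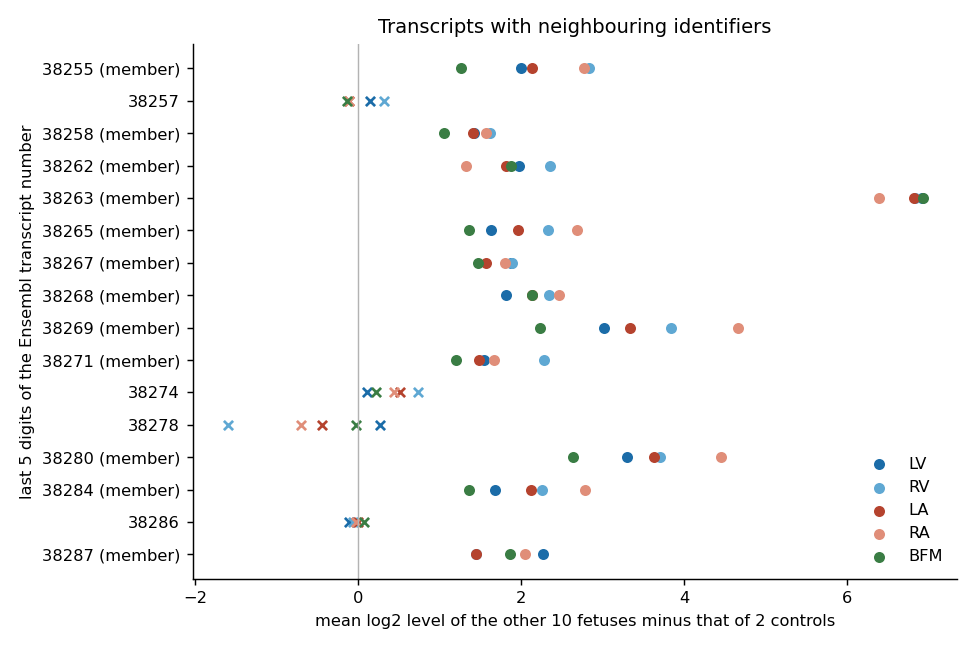
Mean log2 level of 10 fetuses minus that of the other 2, both controls, for the 16 transcripts with identifier numbers 38255 to 38287, in 5 tissues (colours). Circles mark the 12 members, which lie between 1.06 and 6.93, and crosses the 4 transcripts that are not members, which lie between -1.60 and 0.74.

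Outside the range, the same 2 fetuses stood apart in all 5 tissues in 5 of the remaining transcripts, 4 of them members. The low direction held for ENSMMUT00000049354, by a measured 0.59 to 1.27 at signals near the top of the scale, where it may be understated. The opposite direction held for ENSMMUT00000039229, ENSMMUT00000049848, ENSMMUT00000049672 and ENSMMUT00000049467 (mean correlation 0.686, not a member). These were chosen for the split after their values were seen. In ENSMMUT00000039229 the 2 high fetuses lay at 13.0 and 14.0 in LV, above 9.71 to 11.0 in the other 10, and at 12.4 and 13.8 in RA, above 6.28 to 9.38. Over the 5 tissues their mean was higher by 3.04 (LV) to 5.33 (RA). ENSMMUT00000049848 was measured at signals that may also be saturated, with 15.0 and 15.4 against 14.0 to 14.5 in LV and 15.0 and 15.1 against 13.6 to 14.4 in BFM.

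The 3 members with 3 high fetuses were ENSMMUT00000003706, ENSMMUT00000000450 and ENSMMUT00000004030. In LV, ENSMMUT00000000450 lay at 8.86 to 9.71 in the 3 high fetuses and at 5.39 to 7.43 in the other 9. In BFM it lay at 11.6 to 12.2 against 10.4 to 10.9. The high fetuses exceeded the others in the mean by 1.39 in BFM to 2.99 in RV. For ENSMMUT00000003706 the difference was 0.70 in BFM and 1.99 in LV, and for ENSMMUT00000004030 it was 0.80 in RA and 2.03 in LV. The high fetuses were above all others in each tissue, though in RA the gap for ENSMMUT00000004030 was narrow, from 9.51 to 9.63.

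Members were also alike in groups. When the 129 were joined by the correlation of their mean deviations (average linkage, joined at 0.6 or more), they formed 30 groups, 13 of them with 3 or more members, and the 4 largest held 68. These groups were formed from the same values and are given as a description. The largest, of 23, held Pdk4 and had a median correlation of 0.80 between members. The next, of 16, held all 12 members of the identifier range together with ENSMMUT00000049354, ENSMMUT00000022845, ENSMMUT00000049795 and ENSMMUT00000020270, and had a median of 0.96. Groups of 15 and 14 followed, with medians of 0.78 and 0.73. The group of 15 ran opposite to that of Pdk4, with a correlation of -0.94 between the mean profiles, and the group of 14 ran opposite to that of the identifier range (-0.87). Of the 38 members in the Pdk4 group and its opposite, 21 had their most extreme deviation in the same LG control fetus, which was also the most frequent over all members. That fetus was below its group in 23 of 23 and above it in 15 of 15, which joining members by these same deviations favours.

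Neighbouring identifiers went with likeness beyond the range described. Ensembl often numbers the transcripts of a gene in sequence. Outside the range, 6 pairs of members had numbers within 10 of each other, with correlations of mean deviations of 0.98 (ENSMMUT00000026096 and ENSMMUT00000026094), 0.96 (ENSMMUT00000043473 and ENSMMUT00000043474), 0.86 (ENSMMUT00000032950 and ENSMMUT00000032948), 0.82 (ENSMMUT00000044543 and ENSMMUT00000044548), 0.39 (ENSMMUT00000022845 and ENSMMUT00000022848) and -0.03 (ENSMMUT00000020262 and ENSMMUT00000020270). The median was 0.84, against 0.00 over the 8216 pairs of members with more distant numbers, whose correlations ran from -0.996 to 1.000. Pairs share fetuses and may share probes or genes, and no test was made.

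Pdk4 was a graded member, with a mean correlation of 0.750 and a lowest pair of 0.56. It lay at percentile 66.0 (LA) to 88.3 (BFM), above the median transcript in each tissue. Its within-group SD was 1.17 in LV and 1.21 in RV, wider than in LA (0.65) and RA (0.54), and 1.01 in BFM. Transcripts most like it over the 5 tissues, by the mean of the within-tissue correlations over 12 fetuses, were the members ENSMMUT00000013757 (0.81), ENSMMUT00000002508 (0.78) and ENSMMUT00000021620 (0.76), followed by ENSMMUT00000018721 and ENSMMUT00000004299 (0.76 each), which were not members. The most opposite were the member ENSMMUT00000034410 (-0.74) and, outside the members, ENSMMUT00000027677 (-0.73) and ENSMMUT00000047433 (-0.72).

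Group means had been removed before the members were chosen, so the difference between LG and EG controls did not enter the choice. Pdk4 was the member that changed most between the windows. In LV its levels were 5.62, 8.19 and 8.48 in EG controls and 9.52, 11.4 and 11.7 in LG controls. In RV they were 5.84, 6.98 and 7.25 against 8.43, 10.9 and 11.3, and in LA 6.35, 7.06 and 7.55 against 8.96, 9.56 and 10.2. In RA they were 7.33, 7.51 and 7.53 against 9.42, 10.0 and 10.6, and in BFM 8.59, 10.1 and 10.3 against 11.1, 12.5 and 13.8. Control groups did not overlap in any tissue, and the 6 LG fetuses, BPA included, lay above the 6 EG fetuses in all 5. On the fetus means the LFC was 3.00 (SE 0.56, n = 3 against 3, adjusted p = 0.00835, limma with Benjamini-Hochberg adjustment over all transcripts). An exact two-sided permutation test of the 3 against 3 control fetuses gave p = 0.1, the smallest that this design allows.

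Over all transcripts, 2.52% were called for the window difference (LFC of at least 1 in size and unadjusted p of at most 0.01, the criteria of the study), and among the members 7 of 129 were called, 5 of them higher in LG. At an adjusted p of at most 0.05 without a fold threshold the order turned, with 4.65% of the members (6 of 129) against 6.59% of all transcripts. The members' share was thus above that of all transcripts by one criterion and below it by the other. Besides Pdk4, the called members were ENSMMUT00000030676 (LFC 1.64), ENSMMUT00000026519 (1.61), ENSMMUT00000007352 (1.18) and ENSMMUT00000020895 (1.08), which were higher in LG, and ENSMMUT00000030189 (-1.79) and ENSMMUT00000030347 (-1.21), which were lower. Their adjusted p-values from limma ran from 0.00835 for Pdk4 to 0.0662 for ENSMMUT00000007352. The 6 EG and 6 LG fetuses stayed without overlap in all 5 tissues in 2 members, Pdk4 and ENSMMUT00000030189, against 0.382% of all transcripts. For ENSMMUT00000030189 the LG mean was lower by 1.36 in RA to 2.70 in BFM, and its 3 levels were 6 high fetuses, all EG, above 4 and then 2 LG fetuses.

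BPA exposure was the comparison for which the study was made. On the fetus means no member was called in EG (0 of 129, where 0.0918% of all transcripts were called) or in LG (0 of 129, against 0.0880%). At an unadjusted p below 0.05, limma gave 2 of the 129 members in EG and 4 in LG, where 3.45% and 4.23% of all transcripts had such a p, and the lowest adjusted p of a member was 0.996. The LFC exceeded 1 in size in 6 members in EG and in 8 in LG without passing the p threshold. The share of all transcripts with such an LFC is not given, so these counts cannot be read as BPA effects. The members' wider SD between fetuses favours large LFCs (median 0.586 on the fetus means, against 0.225 for all transcripts). The SE was wider for members, with a median of 0.40 against 0.18 for all transcripts, so a BPA effect of a given size was harder to call among them. The LG count depended on single fetuses. Without 1 of the LG control fetuses, the one most often extreme among the members, 8 members were called in LG (67 over all transcripts), and without 1 of the LG BPA fetuses 4 were (82 over all). Members were chosen for deviations of single fetuses, so leaving out a fetus often extreme among them narrows their spread. A rise in their count is then favoured by the choice and cannot be read as a BPA effect. A fit of all 60 arrays with the fetus as a random block called 4 members in EG, where 23 of all transcripts (0.0880%) were called, and 5 in LG, where 27 (0.103%) were, but it applied the consensus within-fetus correlation of 0.0478 to every transcript, where the members' own had a median of 0.673.

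In the separate tissues, 75 to 95 of the members passed the filter on an interquartile range of at least 0.5, and 1 of them was called. That was PMS2CL, in EG, in both LV and BFM. The study already lists this transcript as raised in LV in EG by the same criteria, so the LV call repeats its result. The name used here comes from that list. Called shares over all transcripts tested in EG were 0.925% in LV and 0.267% in BFM, and 0.615% (RV), 0.582% (LA) and 0.439% (RA) in the other chambers. In LG, where no member was called in any tissue, they were 0.840% in LV and 0.825% in BFM, and 0.549% (RV), 1.09% (LA) and 0.439% (RA) in the other chambers. No member passed an adjusted p of 0.05 from limma in any tissue and window. At an unadjusted p below 0.05 there were 0 to 6 in a tissue and window. The share of all tested transcripts at that p is not given for single tissues, so these counts cannot be read against it.

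PMS2CL had a mean correlation of 0.707 and lay at percentile 86.6 to 91.1. In LV its levels were 9.35, 9.37 and 9.50 in EG controls and 10.5, 10.5 and 11.0 after EG BPA. In BFM they were 10.1, 10.3 and 10.5 against 11.1, 11.4 and 11.5. In RV they were 9.37, 9.46 and 9.57 against 10.2, 10.3 and 10.9, and in LA 10.3, 10.4 and 10.6 against 10.7, 10.8 and 11.2. The groups did not overlap in these 4 tissues, and they did in RA. The tissues come from the same 3 and 3 fetuses, and members were chosen for recurrence, so these are not 4 separate results. An exact two-sided permutation test gave p = 0.1 in each of the 4, the smallest that this design allows. The share of all transcripts with such separation is not given here. The LFC was 1.28 in LV (SE 0.40, adjusted p = 0.982, limma) and 1.07 in BFM (SE 0.27, adjusted p = 1.00, limma). On the fetus means it was 0.85 (SE 0.21), below the fold threshold, with an adjusted p of 1.00 from limma. In LG the LFC was -0.25 (SE 0.21), and control and BPA groups overlapped. The EG controls were also low against the LG fetuses. LG controls lay above them without overlap in LV (by 1.27), RV (1.07), LA (0.44) and BFM (0.70), and overlapped them in RA. LG BPA fetuses lay above the EG controls in the same 4 tissues. The test of the LG effect minus the EG effect, which 0.348% of all transcripts passed at the criteria of the study, called this member alone among the 129 (adjusted p = 0.974, limma). A probe for a partial copy of PMS2 may also bind PMS2 itself, and their signals were not separated here.

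**Figure D5:**
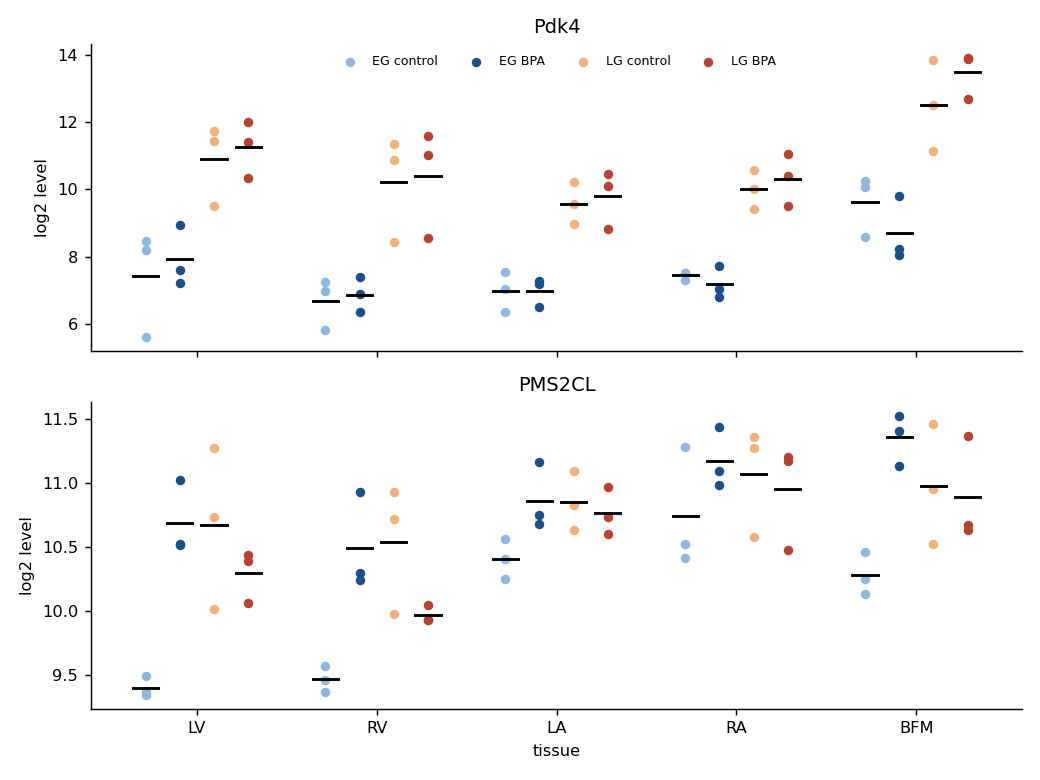
Log2 levels of Pdk4 (top) and PMS2CL (bottom) in 5 tissues, with 3 fetuses as points in each of 4 groups and the group mean as a bar. All LG fetuses lie above all EG fetuses for Pdk4 in every tissue. For PMS2CL, EG controls lie below the EG BPA fetuses and below all LG fetuses in LV, RV, LA and BFM, with overlap in RA.

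How far a member rested on single animals was examined by leaving out each fetus in turn. Of the 129, 32 kept a mean correlation above 0.7 whichever fetus was left out, and 107 kept one above 0.5. By pattern these 32 comprised 13 of the 17 members with 2 levels, 1 of the 15 with a fetus apart, 2 of the 11 with 3 levels and 16 of the 86 graded members. The lowest mean correlation without a fetus had a median of 0.62, and it fell below 0.3 in 5 members. The contrast between patterns is partly built in by their definitions. Leaving out the fetus apart removes the gap that defines such a member, while a member with 2 levels keeps fetuses on both sides. The kinds of pattern did not start level either, since the median correlation over all fetuses was 0.92 in members with 2 levels and 0.74 in graded ones. Of the 17 members with 2 levels, 9 lie in the identifier range described above.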

How the data were processed

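Transcript levels were measured on custom NimbleGen 12-plex arrays of 60-mer probes designed from the Ensembl Mmul_1 build. Per the study's methods, the authors made the deposited log2 values by robust multi-array averaging within each tissue (background correction, quantile normalization and median polish). Software versions for this step are not given in the sources used here. Tissues are therefore on separate scales, and precision is limited by the number of arrays. The deposited values were used unchanged.

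Deviations from group means, their Pearson correlations and the patterns were computed in Python 3.11.15 with NumPy 2.4.6, pandas 2.3.3 and SciPy 1.17.1, and figures were drawn with matplotlib 3.10.9. BPA and window contrasts were fitted with limma 3.58.1 in R 4.3.3, with 4 groups in 1 fit, on fetus means over all transcripts and in each tissue leaving out transcripts whose interquartile range was below 0.5. Calls followed the study (LFC of at least 1 in size, unadjusted p of at most 0.01), with Benjamini-Hochberg adjusted p-values beside them. Single transcripts were tested with exact two-sided permutations. The rule, the patterns and the limma contrast were tested on simulated data. Fetuses are the replicates. The number in a title pairs the tissues of the same animal. The within-fetus correlation estimated over 60 arrays was 0.0478 as a consensus over all transcripts, and 0.673 as the median of the members' own estimates.

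The members and the lists were chosen with earlier results of these data known. Transcripts with a name, those called on fetus means or in at least 2 tissues, 3 on each side of the threshold and the 5 with the highest mean correlation are named by rule. Others are named for a pattern after their values were seen. 1 further transcript above the threshold is not reported here. Alternatives covered the correlation, threshold, tissues, normalization, low values, filter, model and each fetus left out. Per the study's methods, a small share of the probes was let reach the scanner's ceiling, which may compress differences between arrays at the highest signals, and saturated probes were not marked in the values used here.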

Additional observations from a re-analysis of the deposited data

Results flagged for a closer look

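PMS2CL (ENSMMUT00000042488) had BPA effects that differed between the windows by the unadjusted test only. On the fetus means the effect in LG minus that in EG was -1.10 (SE 0.30, adjusted p = 0.974, limma), with means relative to the tissue of -0.53 in EG controls, 0.32 after EG BPA, 0.23 in LG controls and -0.02 after LG BPA. In RV the same difference was -1.59. Both passed the criteria of the study, LFC of at least 1 in size with an unadjusted p of at most 0.01, and neither passed the adjustment. On the fetus means 1 of 129 members met those criteria for this difference, where 0.348% of all transcripts did. Groups of 3 fetuses were too small for a test of single outlying samples.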

How the results depend on the processing

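Of the choices tried, the measure of likeness, the threshold, the tissues and the absence of 1 fetus moved the number of members by more than 1.5 times. Spearman correlation gave 82 transcripts, 74 of them among the 129, and thresholds of 0.6 and 0.8 gave 382 and 41. Heart chambers alone, which is the same as leaving out BFM, gave 268, and leaving out RV gave 214. Median centring, further quantile normalization, raised low values, a lowest pair above 0.5 and deviations from the window mean gave 108 to 132. Without each fetus in turn the number ran from 112 to 209, the latter without 1 LG BPA fetus, and 80 to 123 of the 129 were kept, the fewest without 1 LG control fetus. The number of members with 2 levels stayed within 1.5 times under every alternative run. Members with 1 fetus apart numbered 25 at a gap of 0.3 of the range and 9 at 0.5, and members with 3 levels 7 at a gap of 0.3 and 3 on deviations from the window mean, which removes the difference between EG and LG.

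With the fetus as a replicate block, 4 members were called for BPA in EG and 5 in LG (23 and 27 over all transcripts), in place of 0. That fit applied the consensus within-fetus correlation of 0.0478, where the members' own had a median of 0.673. It thus treated the tissues of an animal as nearly independent, and its counts for members cannot be read as BPA effects. With median centring 1 was called in LG (24 over all transcripts), and the other settings called 0 (0 to 23 over all). Without each fetus in turn, 0 to 1 were called in EG and 0 to 8 in LG, with 21 to 53 and 21 to 82 over all transcripts. In the separate tissues, 1 member was called in at least 1 tissue in EG and 0 in LG (336 and 400 over all transcripts). An adjusted p of at most 0.05 left 0 in EG (0 over all transcripts), and no filter gave 1 in LG (523 over all). Without each fetus in turn the counts ran from 1 to 2 in EG and from 0 to 11 in LG (266 to 466 and 374 to 755 over all transcripts). The most members were called without the LG control fetus most often extreme, which the choice of members by their deviations favours. The window difference gave 7 members with a filter on the interquartile range (639 over all transcripts) and 7 with median centring (666 over all). It gave 10 when both treatments were used (634 over all transcripts), a choice made after seeing the data. The causes of these changes were not tested. With 3 fetuses in a group, no exact test of 1 transcript can reach a p below 0.1.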
